A study of Mus musculus with 4 samples.

Results

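Plasma cell spots are the spots of mouse popliteal lymph nodes (PLNs) in which messenger RNA of plasma cell genes took the largest share of all captured RNA. They were found among the Visium spots with at least 1000 unique molecular identifiers (UMIs, 1 for each captured RNA molecule) by a score, the summed UMIs of Jchain, Mzb1, Xbp1, Sdc1, Prdm1, Tnfrsf17, Derl3 and Txndc5 divided by all UMIs of the spot, and the 15% of spots with the highest score were taken on each capture area. No immunoglobulin gene was part of the score. This gave 309 plasma cell spots among 2057 spots of at least 1000 UMIs, out of 6119 spots under tissue in all: 41 on wild-type (WT), 90 on Early, 87 on Advanced 1 and 91 on Advanced 2. The remaining 1748 spots of at least 1000 UMIs are called other spots. Because the share of 15% was set by the rule, the number of plasma cell spots says nothing about how many plasma cells an area held.

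PLNs drain the ankle, and the study followed them through inflammatory-erosive arthritis. Each of the 4 capture areas held a frozen section through PLNs of several male C57BL/6 mice: 10 PLNs of 5 WT mice aged 5.5 months, 6 PLNs of 3 TNF-Tg mice aged 5.5 months with Early arthritis, and, on each of the Advanced areas, 6 PLNs of 3 TNF-Tg mice aged 8.5 to 9 months with Advanced arthritis. TNF-Tg mice were of a line that carries a single copy of a TNF transgene and develops arthritis without autoantibodies being needed. WT and Early were represented by a single area each, the Advanced mice were older than the others, and nodes of different mice were not separated in the files, so condition, age and capture area cannot be told apart. The areas held between 1808678 and 5180493 UMIs, and the plasma cell spots 328003 on WT, 641409 on Early, 633971 on Advanced 1 and 437272 on Advanced 2. Values of the 4 areas are given below in the order WT, Early, Advanced 1 and Advanced 2.

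Plasma cells are the antibody-secreting end stage of the B cell lineage. In lymph nodes they form from activated B cells in and around the follicles and gather in the medulla, along the cords between the sinuses, where stromal and myeloid cells supply survival signals. On the way they shut down the B cell programme, including antigen presentation and follicle homing, and enlarge the endoplasmic reticulum (ER), the compartment in which heavy and light chains are folded, glycosylated and joined before secretion. The heavy chain constant gene decides the antibody class: Ighm encodes IgM, made before class switching, and Ighg1, Ighg2b, Ighg2c, Ighg3, Igha and Ighe encode the switched classes. Xbp1 and Atf6, transcription factors of the unfolded protein response, act through a promoter motif known as the ER stress response element (ERSE).

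The ERSE is shown here because 14 of 22 ER chaperone and folding genes, described below, were higher in plasma cell spots. The letters searched were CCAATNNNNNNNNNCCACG on both strands, in windows from 250 bases before to 50 bases after the start of each gene (RefSeq, GRCm38.p6). The motif was present for 37 of 27025 genes with a window, or 0.137%, and for 8 of the 21 listed ER chaperone and folding genes with a window, or 38.1%: Calr, Canx, Creld2, Dnajc3, Ero1b, Hsp90b1, Hspa5 and Pdia6. The 21 are not the same set as the 22 genes measured, since Ero1b was not among the measured genes. It was found for 1 of 14 genes of ER stress and degradation (Syvn1) and for 0 of 19 genes of ER entry and glycosylation. A match describes letters only and is not evidence that a factor bound there. The stretches below lie upstream of the gene start and are written in the direction of transcription, with each match in capitals, for 3 chaperones that were higher in plasma cell spots and for Calr, which carries the same motif and did not pass the test.
Hspa5, chr2:34772005-34772063, + strand, 85 to 27 bases before the start: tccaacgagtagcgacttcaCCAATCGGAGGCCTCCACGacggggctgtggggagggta
Hsp90b1, chr10:86705513-86705676, - strand, 232 to 69 bases before the start, with 2 matches: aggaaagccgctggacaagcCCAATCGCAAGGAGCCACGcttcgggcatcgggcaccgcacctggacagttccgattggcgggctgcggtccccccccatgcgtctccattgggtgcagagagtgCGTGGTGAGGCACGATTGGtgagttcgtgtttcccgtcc
Creld2, chr15:88819500-88819558, + strand, 146 to 88 bases before the start: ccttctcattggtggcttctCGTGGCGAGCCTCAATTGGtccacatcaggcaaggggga
Calr, chr8:84847055-84847113, - strand, 182 to 124 bases before the start: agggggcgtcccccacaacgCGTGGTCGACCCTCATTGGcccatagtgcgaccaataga

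The spots were chosen by the score, so the values of its 8 genes are a description. Its median was 0.572%, 0.388%, 0.371% and 0.486% of UMIs in plasma cell spots, and 0.114%, 0.0809%, 0.0801% and 0.129% in other spots. The last spot taken and the first spot left out had 0.434% and 0.4% on WT, 0.254% and 0.254% on Early, 0.279% and 0.279% on Advanced 1, and 0.357% and 0.355% on Advanced 2, so on the 3 TNF-Tg areas the border ran through a continuous range. A plasma cell spot held a median of 25, 24, 19 and 17 score UMIs, and 4, 29, 30 and 25 of them held fewer than 10, which makes membership of spots near the border imprecise. Jchain, which links IgM and IgA into polymers, supplied 69.4%, 73.3%, 66.3% and 67.3% of the score UMIs in plasma cell spots. The surface and regulatory genes were sparse: Prdm1, the transcription factor that shuts down the B cell programme, had 4, 12, 11 and 7 UMIs there, and Tnfrsf17, the receptor BCMA, 3, 10, 10 and 6.

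A check of the label that did not use the gene tested came from choosing plasma cell spots on the other 7 score genes alone. Jchain (chr5:88519809-88527891, mm10) then had 40.3, 28.1, 31.0 and 29.8 UMIs per 10000 in the spots chosen and 11.7, 5.44, 6.44 and 10.1 in the others, higher in 4 of 4 areas (log2 fold change 2.16, SE 0.10, adjusted p = 2.86e-18, edgeR quasi-likelihood test). Of the plasma cell spots of the full score, 28, 52, 58 and 54 were chosen again without Jchain, so which single spots were taken depended on this gene. Each spot spans several cells, and the spots also held RNA of B cells, T cells, macrophages and stroma, as given below. In summed spots, fewer cells of a type and less RNA per cell cannot be told apart.

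Plasma cell spots lay in groups. Contacts between touching spots of at least 1000 UMIs were counted once from each side. Of the contacts of plasma cell spots, 46.9%, 48.3%, 56.4% and 42.5% were with another plasma cell spot, against 10.3%, 11.1%, 8.94% and 12.5% of the contacts of other spots. Plasma cell spots formed 18, 33, 26 and 39 groups of touching spots, of which the largest held 7, 21, 41 and 20 spots, while 11, 22, 18 and 28 spots stood alone. Spots with fewer than 6 neighbours under tissue were called edge spots, and these made up 56.1%, 43.3%, 29.9% and 34.1% of plasma cell spots and 71.6%, 66.5%, 33.7% and 49.1% of other spots. The share at an edge was lower for plasma cell spots on each of the 4 areas, a difference that was not tested. Median depth was 4078, 5246, 4230 and 2952 UMIs in plasma cell spots and 3488.5, 5528, 3095.5 and 3073 in other spots, and the 3 deepest plasma cell spots held 37.8%, 13.7%, 12.9% and 17.5% of the UMIs of all plasma cell spots of their area.

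**Figure D1:**
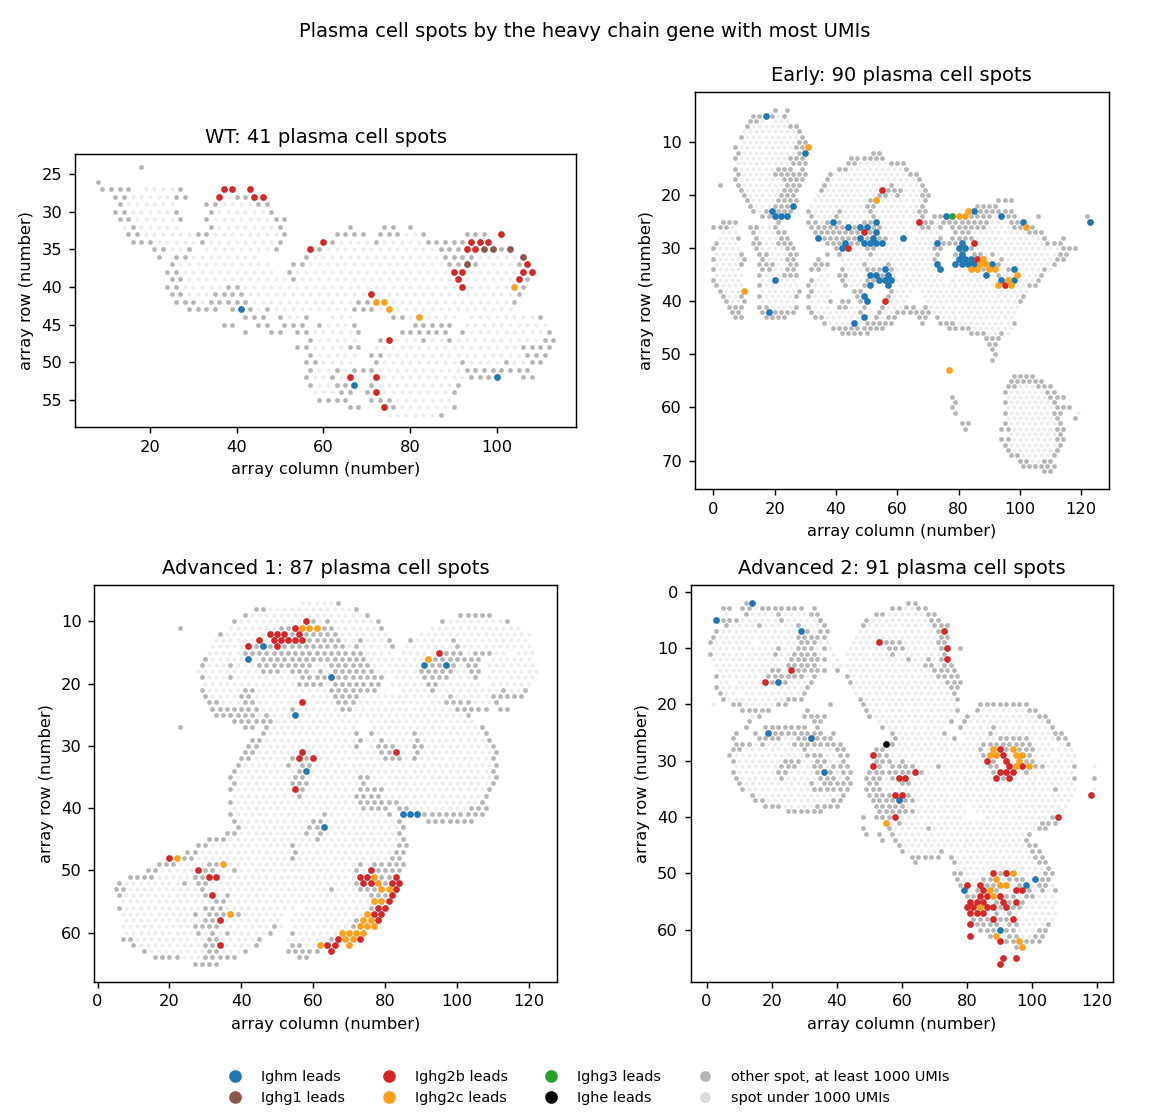
Position of plasma cell spots on the 4 capture areas, by array column and array row; coloured points are plasma cell spots, coloured by the heavy chain constant gene with the most UMIs in the spot, and grey points are other spots and spots under 1000 UMIs. Ighm led in 62 of 90 plasma cell spots on Early, where Ighg2b led in 8, while Ighg2b led in 28 of 41 on WT, 49 of 87 on Advanced 1 and 58 of 91 on Advanced 2.

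Immunoglobulin genes were not part of the score, and they took 20.0%, 13.6%, 15.7% and 21.1% of all UMIs in plasma cell spots against 5.68%, 2.59%, 3.69% and 5.76% in other spots. The heavy chain constant genes lie side by side on the reverse strand of chromosome 12, from Ighm (chr12:113418558-113422730, mm10) to Igha (chr12:113254830-113260236). Of the 7 heavy chain constant genes tested, 6 were higher and 1 was lower in plasma cell spots, with a median log2 fold change of 2.04. Levels of immunoglobulin genes are UMIs per 10000 of all UMIs. The classes resemble each other in sequence, and reads that could belong to more than 1 of them make the split between Ighg genes less certain than their sum.

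Ighg2b had 466, 151, 281 and 553 UMIs per 10000 in plasma cell spots and 121, 24.2, 59.1 and 141 in other spots (log2 fold change 2.42, SE 0.07, adjusted p = 5.85e-18, edgeR). Ighg2c, also an IgG2 gene, had 166, 174, 267 and 336 in plasma cell spots and 51.4, 21.5, 36.7 and 74.4 in other spots (log2 fold change 2.66, SE 0.12, adjusted p = 3.05e-14). For both genes every plasma cell sum was above all 4 other-spot sums. Ighm had 109, 260, 207 and 290 against 65.1, 49.5, 49.8 and 84.7 (log2 fold change 1.97, SE 0.13, adjusted p = 1.88e-10). Ighg1 had 268, 13.0, 28.9 and 58.5 against 42.5, 3.73, 14.3 and 12.0 (log2 fold change 2.17, SE 0.16, adjusted p = 6.1e-10). Its sums overlapped between the spot classes, since the WT other spots were above the plasma cell spots of Early and Advanced 1, but within each area plasma cell spots were higher.

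The rarer classes followed. Ighg3 had 11.3, 60.9, 19.9 and 26.1 UMIs per 10000 in plasma cell spots and 7.45, 5.98, 5.69 and 15.9 in other spots (log2 fold change 1.83, adjusted p = 1.59e-05), and Igha had 14.3, 8.19, 8.36 and 4.12 against 2.95, 0.954, 4.68 and 1.95 (log2 fold change 2.04, adjusted p = 6.08e-07). Ighd, which encodes the IgD of resting naive B cells, went the other way, with 3.17, 5.80, 7.63 and 3.82 in plasma cell spots and 7.73, 12.3, 12.0 and 8.53 in other spots (log2 fold change -0.82, SE 0.10, adjusted p = 1.22e-05), lower in 4 of 4 areas. Ighe was too sparse for the test across areas: plasma cell spots held 0, 2, 1 and 90 Ighe UMIs, and 65 of the 90 on Advanced 2, or 72.2%, were in a single spot.

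As shares of heavy chain constant UMIs without Ighd, Ighm took 10.5%, 39.0%, 25.5% and 22.8% in plasma cell spots. The Ighg genes together took 88.1%, 59.8%, 73.5% and 76.7% in plasma cell spots, and 76.6%, 52.3%, 68.0% and 73.7% in other spots. The shares were thus higher in plasma cell spots on every area for Ighg and differed more between areas than between spot classes. The ratio of Ighg2b to Ighm UMIs in plasma cell spots was 4.28 (95% exact counting interval 4.13 to 4.44), 0.58 (0.565 to 0.594), 1.36 (1.33 to 1.39) and 1.91 (1.87 to 1.95), and in other spots 1.86, 0.489, 1.19 and 1.66. Counting intervals cover counting error only and not the spread between mice or areas.

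**Figure D2:**
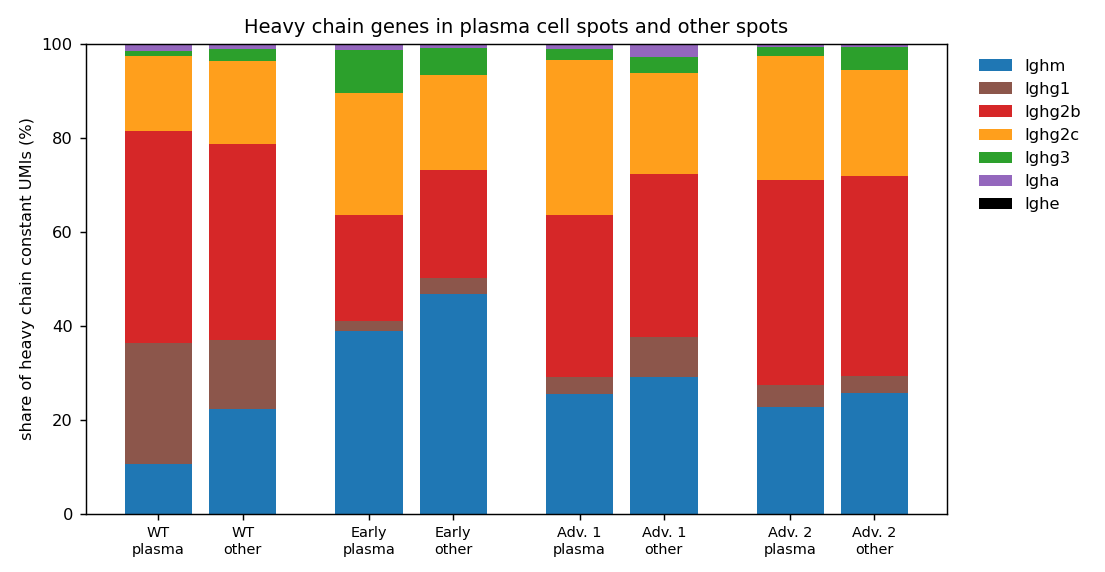
Share of each heavy chain constant gene (percent of UMIs of Ighm, Ighg1, Ighg2b, Ighg2c, Ighg3, Igha and Ighe) in plasma cell spots and other spots of each capture area. Ighm takes 39.0% in plasma cell spots of Early and between 10.5% and 25.5% on the other areas, and Ighg1 takes 25.9% on WT and 1.95% on Early.

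The heavy chain gene with most UMIs in a plasma cell spot, by whatever margin, was Ighg2b in 28, Ighg1 in 5, Ighg2c in 5 and Ighm in 3 of the 41 WT spots. On Early it was Ighm in 62, Ighg2c in 19, Ighg2b in 8 and Ighg3 in 1. On Advanced 1 it was Ighg2b in 49, Ighg2c in 27 and Ighm in 11, and on Advanced 2 Ighg2b in 58, Ighg2c in 20, Ighm in 12 and Ighe in 1. Ighg2b had more UMIs than Ighm in 92.7%, 15.6%, 74.7% and 81.3% of plasma cell spots. Touching plasma cell spots shared their leading gene in 70.0%, 61.4%, 72.3% and 64.5% of pairs, and all pairs of plasma cell spots of an area in 48.9%, 52.2%, 42.3% and 46.6%; pairs share spots and no test was made.

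Of the light chain constant genes, 3 of 4 tested were higher. Igkc, the kappa chain (chr6:70726435-70726966, mm10), had 938, 629, 718 and 772 UMIs per 10000 in plasma cell spots and 249, 111, 163 and 211 in other spots (log2 fold change 2.32, SE 0.07, adjusted p = 1.34e-18, edgeR). The lambda gene Iglc1 had 7.13, 23.5, 7.65 and 32.6 against 6.22, 5.43, 4.90 and 7.73 (log2 fold change 1.52, adjusted p = 1.28e-05), and Iglc2 had 8.29, 20.0, 15.3 and 19.6 against 7.58, 12.7, 10.0 and 12.3 (log2 fold change 0.75, adjusted p = 9.38e-06). Iglc3 had 4.30, 12.4, 7.86 and 7.57 against 5.47, 10.9, 8.78 and 7.25 and did not pass the test (log2 fold change 0.16, SE 0.10, adjusted p = 0.491). Lambda genes made up 2.06%, 8.18%, 4.12% and 7.19% of light chain constant UMIs in plasma cell spots and 7.17%, 20.7%, 12.7% and 11.5% in other spots, lower on each area. Variable segments of the heavy and kappa chains were too sparse to describe: the 185 Ighv features held 27 UMIs and the 160 Igkv features 143 over all spots of the series. The 3 Iglv features held 538.

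Across all genes, UMIs were summed per area over plasma cell spots and over other spots and compared within areas. Of 9931 genes tested without the score genes, 233 (2.35%) were higher and 153 (1.54%) lower in plasma cell spots at an adjusted p under 0.05, and 211 and 146 of these had the same direction on 4 of 4 areas. At least 2-fold differences were found for 84 of the higher and 37 of the lower genes. The split depended on the scaling: with library totals in place of trimmed mean (TMM) scaling, the median gene moved from 0.00 to -0.20 and the calls were 135 higher and 724 lower, with no called gene changing sign. Without the capture area as a block 46 genes were higher and 6 lower, without the Early area 121 and 56, without Advanced 2 130 and 73, and without the 3 deepest plasma cell spots of each area 196 and 142. Levels of all genes other than immunoglobulin genes are given below as UMIs per 10000 UMIs outside immunoglobulin genes.

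**Figure D3:**
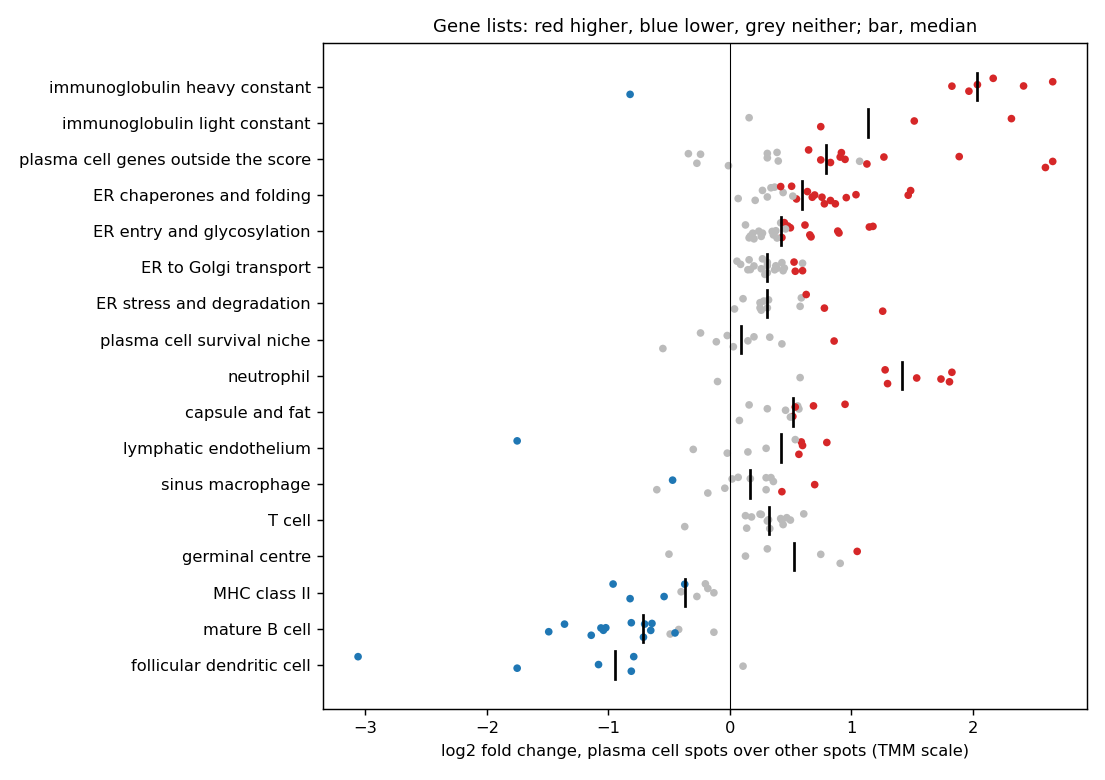
Log2 fold change of each tested gene of 17 gene lists between plasma cell spots and other spots (x axis, TMM scale), red where higher and blue where lower at an adjusted p under 0.05, grey where neither, with the list's median as a bar. Of the ER chaperones and folding genes 14 of 22 are red, and of the mature B cell genes 12 of 15 are blue.

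Plasma cell genes outside the score were higher for 11 of 20 and lower for 0, with a median log2 fold change of 0.79 where the median of all genes was 0.00. Eaf2, a transcription elongation factor, had 1.26, 0.956, 0.973 and 0.637 UMIs per 10000 in plasma cell spots and 0.179, 0.130, 0.121 and 0.178 in other spots (log2 fold change 2.66, SE 0.21, adjusted p = 3.92e-09, edgeR). Ell2, another elongation factor, favours the secreted form of immunoglobulin mRNA and had 0.838, 0.577, 0.711 and 0.782 against 0.273, 0.339, 0.225 and 0.334 (log2 fold change 1.27, adjusted p = 0.000206). Tent5c, a poly(A) polymerase that stabilises immunoglobulin mRNA, had 1.64, 0.938, 1.91 and 1.62 against 0.499, 0.212, 0.506 and 0.477 (log2 fold change 1.89, SE 0.15, adjusted p = 1.98e-09). For each of these 3 genes all plasma cell sums were above all other-spot sums. Bhlha15, or Mist1, a transcription factor of secretory cells, had 0.343, 0.144, 0.468 and 0.203 against 0.0780, 0.0259, 0.0346 and 0.0607 (log2 fold change 2.60, SE 0.38, adjusted p = 7.85e-05), and Irf4, required for plasma cell formation, had 2.32, 1.44, 1.65 and 3.01 against 1.49, 0.869, 1.01 and 1.33 (log2 fold change 0.83, adjusted p = 9.39e-05). Cd93, Slamf7, Creb3l2, Hid1, Ly6c2 and Edem2 were also higher, by log2 fold changes of 0.65 to 1.13. Among the 9 that did not pass were Cd38 (log2 fold change -0.27, adjusted p = 0.302), Pou2af1 (0.31, adjusted p = 0.282) and Pdcd4 (-0.34, adjusted p = 0.227), which B cells or T cells also express.

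ER chaperones and folding enzymes were higher for 14 of 22, lower for 0, with a median of 0.60. Hspa5 (BiP), which holds unassembled heavy chains, had 12.0, 8.37, 7.07 and 6.55 UMIs per 10000 in plasma cell spots and 6.82, 4.90, 5.30 and 4.48 in other spots (log2 fold change 0.64, SE 0.10, adjusted p = 0.000191, edgeR). Hsp90b1 (GRP94), whose upstream stretch carries 2 ERSE matches, had 16.5, 8.48, 11.6 and 8.34 against 7.50, 4.63, 5.35 and 4.16 (log2 fold change 1.04, SE 0.10, adjusted p = 6.07e-08), so that the lowest plasma cell sum was above the highest other-spot sum. Creld2, an ER protein induced by ER stress, had 3.62, 1.84, 1.74 and 2.11 against 1.13, 0.718, 0.761 and 0.651 (log2 fold change 1.47, SE 0.13, adjusted p = 1.78e-08), again without overlap. Calr (calreticulin), with an ERSE match as well, had 7.51, 4.71, 5.03 and 3.22 against 6.43, 4.41, 4.71 and 3.57, and its difference was small (log2 fold change 0.07, SE 0.10, adjusted p = 0.835). Pdia4, Pdia6, Dnajb9, Dnajc3, Sdf2l1, Hyou1, Manf, Ppib, Fkbp2 and Prdx4 were higher by log2 fold changes of 0.42 to 0.96. Fkbp11, a peptidyl-prolyl isomerase of secretory cells, was higher on 3 of 4 areas, with 1.11, 0.0541, 0.617 and 0.232 against 0.328, 0.0777, 0.151 and 0.0911 (log2 fold change 1.49, adjusted p = 0.00358), and its call was lost without WT (adjusted p = 0.0784) and without Advanced 1 (adjusted p = 0.0773).

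The machinery that takes nascent chains into the ER moved the same way, with 11 of 25 genes higher, 0 lower and a median of 0.42. Sec11c, a catalytic subunit of the signal peptidase, had 8.16, 4.44, 6.21 and 5.79 UMIs per 10000 in plasma cell spots and 3.30, 2.96, 3.16 and 3.60 in other spots (log2 fold change 0.89, SE 0.12, adjusted p = 1.8e-05, edgeR). Spcs3, another subunit of that enzyme, had 1.98, 1.39, 1.18 and 1.39 against 0.756, 0.605, 0.575 and 0.638 (log2 fold change 1.18, SE 0.14, adjusted p = 3.42e-06). Neither gene's sums overlapped between the spot classes. Ssr4 of the translocon-associated complex (0.90), the oligosaccharyltransferase subunits Rpn1 (0.67), Ddost (0.62) and Krtcap2 (0.45), and Spcs1, Spcs2, Sec61a1, Ssr2 and Tram2 were higher too. Tram2 (log2 fold change 1.15, adjusted p = 0.00348) lost its call without Early (adjusted p = 0.0594) and without Advanced 2 (adjusted p = 0.0748). The translocon subunits Sec61b (0.24, adjusted p = 0.295) and Sec61g (0.20, adjusted p = 0.383) did not pass.

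Of 22 genes of ER to Golgi transport 3 were higher and 0 lower: Surf4, a cargo receptor (log2 fold change 0.54), Arf4, a small GTPase (0.53), and Kdelr1, which returns chaperones to the ER (0.60, adjusted p = 0.00662, lost without Early with adjusted p = 0.0778). All 22 had a log2 fold change above 0, with a median of 0.31. Of 13 genes of ER stress and degradation tested, 3 were higher, with the same median of 0.31. Edem1, which marks misfolded glycoproteins for degradation, had 4.42, 2.87, 3.99 and 2.78 UMIs per 10000 in plasma cell spots and 1.65, 1.13, 1.58 and 1.5 in other spots (log2 fold change 1.26, SE 0.12, adjusted p = 5.1e-08, edgeR). Sel1l (0.78, adjusted p = 0.00043) and Herpud1 (0.63, adjusted p = 0.000864), parts of the same degradation pathway, were also higher. Atf4, the transcription factor of the integrated stress response, had 4.00, 3.52, 3.11 and 3.22 against 2.67, 2.57, 3.08 and 3.06 and did not pass (0.28, adjusted p = 0.235). The stress-induced genes Trib3, Chac1 and Asns held between 0 and 6 UMIs in the plasma cell spots of an area and could not be tested.

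Among the genes with the highest log2 fold changes outside the immunoglobulin genes were several that belong to no list. Slpi, a secreted inhibitor of leukocyte proteases, had 228, 4.98, 10.9 and 6.20 UMIs per 10000 in plasma cell spots and 32.7, 0.756, 1.95 and 1.12 in other spots (log2 fold change 2.63, SE 0.09, adjusted p = 4.15e-17, edgeR). Plasma cell spots were higher on each of the 4 areas by a similar factor, while the WT area stood apart from the TNF-Tg areas in both spot classes, and in WT all 41 plasma cell spots held Slpi. The calcium channel subunit genes Cacna1h and Cacna1s were higher, Cacna1h with 0.457, 0.577, 0.486 and 0.637 against 0.109, 0.0353, 0.0865 and 0.182 (log2 fold change 2.59, adjusted p = 4.58e-06) and Cacna1s with 0.457, 0.361, 0.337 and 0.319 against 0.0780, 0.0683, 0.108 and 0.113 (log2 fold change 1.99, adjusted p = 0.000118). Kcnn4, a calcium-activated potassium channel, had 1.22, 1.19, 2.04 and 2.09 against 0.834, 0.292, 0.674 and 0.824 (log2 fold change 1.43, adjusted p = 2.14e-06). The 3 channel genes were sparse, with at most 109 UMIs in the plasma cell spots of an area. Prg2, the major basic protein of eosinophil granules, had 0.877, 0.632, 0.748 and 2.46 against 0.133, 0.0824, 0.212 and 0.447 (log2 fold change 2.43, adjusted p = 3.29e-09). Emp1 (1.81, adjusted p = 0.000118), Fmo2 (1.59, adjusted p = 0.00898), Sspn (1.51, adjusted p = 0.00633), Efemp1 (1.47, adjusted p = 0.00831) and the decoy receptor gene Il1r2 (1.43, adjusted p = 0.00942) completed the 15 leading genes together with the neutrophil genes Ngp and Ltf. Leaving out an area ended 4 of these calls: Fmo2 without Early (adjusted p = 0.167) and without Advanced 1 (0.0808), Sspn without Advanced 1 (0.0523), Efemp1 without Early (0.192) and without Advanced 2 (0.113), and Il1r2 without WT (0.171).

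**Figure D4:**
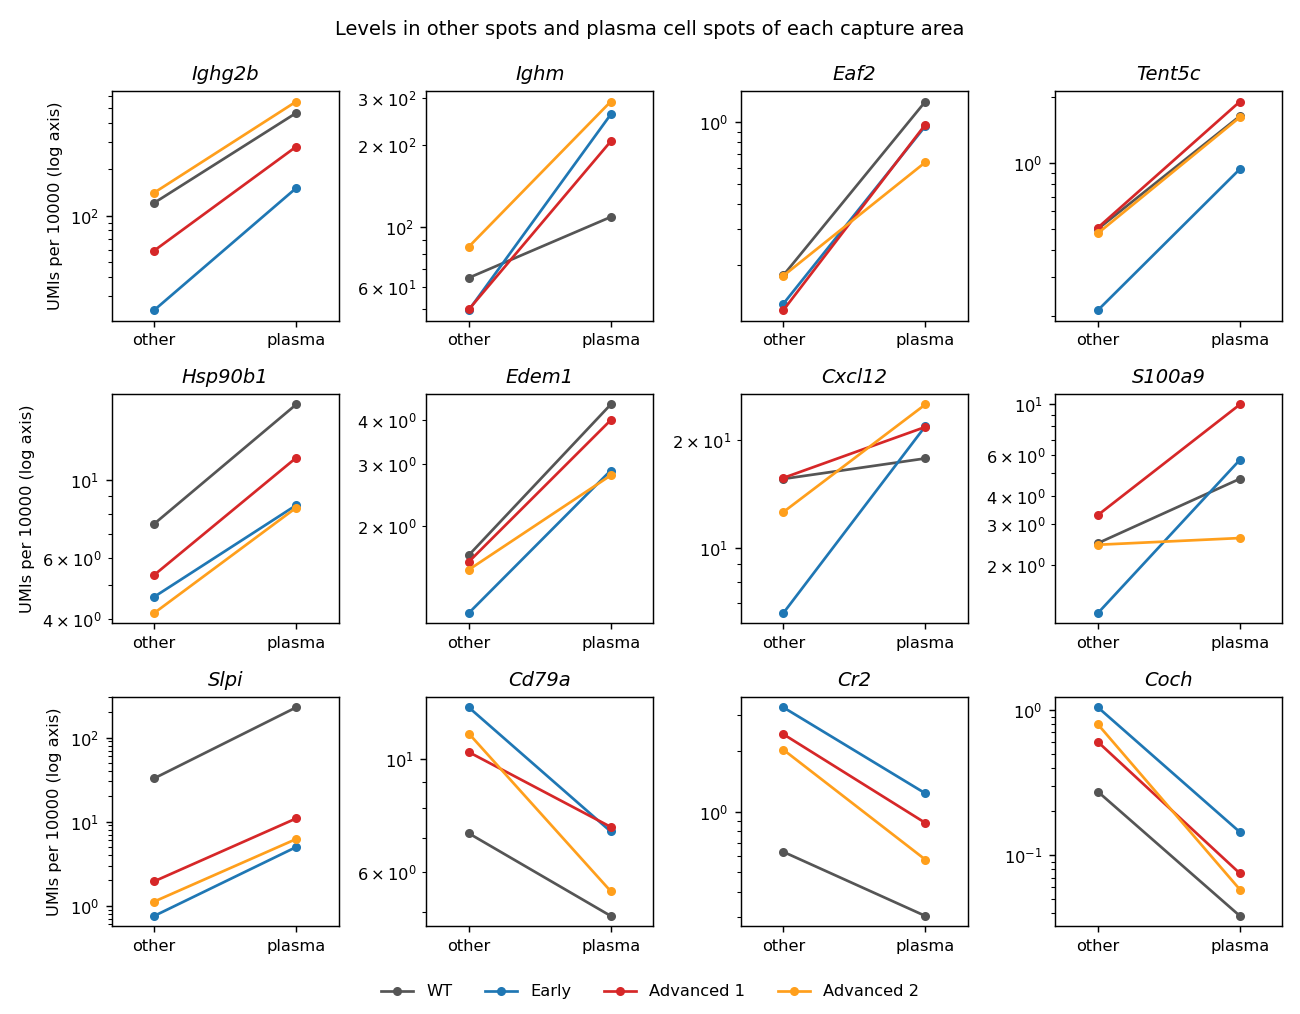
UMIs per 10000 (y axis, log scale) of 12 genes in other spots and plasma cell spots, joined by a line within each capture area; Ighg2b and Ighm are per 10000 of all UMIs and the rest per 10000 outside immunoglobulin genes. The lines of Ighg2b, Ighm, Eaf2, Tent5c, Hsp90b1, Edem1, Cxcl12, S100a9 and Slpi rise on each area, steeply for Eaf2 and barely for S100a9 on Advanced 2, and those of Cd79a, Cr2 and Coch fall.

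Genes of other cells that share these spots also differed. Neutrophil genes were higher for 6 of 8, lower for 0, with a median of 1.42. S100a8, an abundant cytosolic protein of neutrophils, had 3.28, 5.16, 8.57 and 2.64 UMIs per 10000 in plasma cell spots and 1.97, 1.13, 2.77 and 2.09 in other spots (log2 fold change 1.3, SE 0.18, adjusted p = 3.34e-05, edgeR), and its partner S100a9 had 4.73, 5.72, 9.97 and 2.61 against 2.48, 1.23, 3.29 and 2.44 (log2 fold change 1.28, adjusted p = 7.94e-05). The 2 spot classes overlapped across areas for both genes, and the difference was small on Advanced 2. There a single spot held 29.7% of the S100a8 and 25.6% of the S100a9 UMIs, and without it plasma cell spots were at 1.88 and 1.97, below other spots. The granule genes Ngp (1.81), Ltf (1.74), Camp (1.54) and Retnlg (1.83, lost without Early, adjusted p = 0.178) were higher as well. On WT the direction was the opposite for Camp (0.114 in plasma cell spots against 0.328) and Retnlg (0.114 against 0.140), and on Early a single spot held 27 of the 71 Ngp and 14 of the 33 Ltf UMIs. The summed level of the 8 neutrophil genes ranged from 8.43 to 27.4 over the areas in plasma cell spots and from 3.76 to 9.11 in other spots.

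Of the plasma cell survival niche, 1 of 10 genes tested was higher: Cxcl12, the chemokine that holds CXCR4-bearing plasma cells, with 17.8, 21.9, 21.8 and 25.2 UMIs per 10000 in plasma cell spots and 15.6, 6.57, 15.7 and 12.6 in other spots (log2 fold change 0.86, SE 0.14, adjusted p = 0.000399, edgeR). All plasma cell sums were above all other-spot sums, though by little on WT. The survival cytokine genes Tnfsf13 (APRIL) and Tnfsf13b (BAFF) did not pass, with log2 fold changes of -0.55 (adjusted p = 0.145) and 0.43 (adjusted p = 0.44). Tnfsf13 had 0.305, 0.559, 0.356 and 0.290 against 0.639, 0.579, 0.597 and 0.512. Il6 had 0, 2, 0 and 0 UMIs in plasma cell spots, which cannot be read beyond the depth of these sums.

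Stroma, lymphatic and macrophage markers were mixed. Capsule and fat genes were higher for 4 of 11, lower for 0: Lpl, lipoprotein lipase (log2 fold change 0.95, adjusted p = 8.45e-05), the matrix gene Dcn (0.69, adjusted p = 0.00031), and the collagen genes Col1a1 and Col1a2 (0.52 and 0.54), and the list's sum was 25.8 to 39.2 per 10000 in plasma cell spots and 15.7 to 26.3 in other spots. Lymphatic endothelial genes were higher for 4 of 10 (Lyve1 0.59, Flt4 0.60, Reln 0.80, Stab2 0.57) and lower for 1, Madcam1. Lyve1 lost its call without Advanced 2 (adjusted p = 0.1) and without the 3 deepest plasma cell spots of each area (log2 fold change 0.31, adjusted p = 0.415), Reln without Early (0.0947) and without Advanced 1 (0.109), and Stab2 without Early (0.112) and without Advanced 2 (0.0752). Sinus macrophage genes were higher for 2 of 13 (C1qa 0.43, Adgre1 0.70) and lower for 1 (Lyz2, -0.47), and their sum was 59.1 to 110 in plasma cell spots and 84.5 to 116 in other spots. Marco, a scavenger receptor gene on the sinus macrophage list, had 38.9, 28.0, 13.7 and 26.2 against 33.8, 23.7, 20.0 and 23.4 (0.02, adjusted p = 0.958). The paper reports MARCO on lymphatic endothelial cells lining the sinuses as well as on macrophages. In summed spots these sources of Marco RNA cannot be told apart. Leaving out single areas ended the calls of Adgre1 (without WT, Early or Advanced 2, adjusted p = 0.0716, 0.257 and 0.152) and Lyz2 (without Early, Advanced 1 or Advanced 2, adjusted p = 0.238, 0.0714 and 0.0827).

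T cell genes were higher for 0 and lower for 0 of 15 tested, with a median of 0.32. Of the genes of T cell help that the study follows, Cd40, the receptor through which helper T cells act on B cells, had 0.381, 0.686, 0.767 and 0.898 UMIs per 10000 in plasma cell spots and 0.858, 1.14, 1.18 and 1.05 in other spots (log2 fold change -0.63, SE 0.16, adjusted p = 0.0212, edgeR). It was lower on each area, and its call was lost without WT, Early or Advanced 1 (adjusted p = 0.0691, 0.196 and 0.0648). Alcam (0.48, adjusted p = 0.307), Cd6 (0.26, adjusted p = 0.711) and Il21r (-0.31, adjusted p = 0.353) did not pass, and Il21 and Cd40lg had at most 1 UMI in the plasma cell spots of an area. Of 7 iron genes, 1 was lower, the ferritin heavy chain gene Fth1 (-0.48, adjusted p = 0.0277), with 59.4, 42.3, 28.8 and 43.5 against 54.4, 77.2, 59.3 and 47.9, so WT went the other way, and the call was lost without Early, Advanced 1 or Advanced 2 (adjusted p = 0.305, 0.156 and 0.067). Red cell genes were called in 0 of 4 cases, and their sum ranged widely, from 1.88 to 59.5 in plasma cell spots and from 3.31 to 16.3 in other spots. Of the dendritic cell genes 1 of 7 was higher (Flt3, 0.69, adjusted p = 0.0468), and leaving out Early, Advanced 1 or Advanced 2 ended that call (adjusted p = 0.236, 0.111 and 0.219). Of the high endothelial venule genes 1 of 4 was lower (Glycam1, -0.66, adjusted p = 0.0277, lost without Early and without Advanced 2, adjusted p = 0.386 and 0.339).

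Genes of resting B cells were lower. Of 15 mature B cell genes, 12 were lower and 0 higher, with a median of -0.71, and all 15 log2 fold changes were below 0. Cd79a, part of the B cell receptor complex, had 4.92, 7.20, 7.35 and 5.50 UMIs per 10000 in plasma cell spots and 7.14, 12.6, 10.3 and 11.2 in other spots (log2 fold change -0.71, SE 0.11, adjusted p = 8.45e-05, edgeR). Cr2, the complement receptor of follicular B cells and follicular dendritic cells, had 0.305, 1.23, 0.879 and 0.579 against 0.632, 3.27, 2.41 and 2.02 (log2 fold change -1.49, SE 0.14, adjusted p = 9.21e-08). Cxcr5, the follicle-homing receptor, had 0.114, 0.559, 0.412 and 0.261 against 0.632, 1.18, 0.968 and 0.820 (log2 fold change -1.36, adjusted p = 4.42e-05), with no overlap between the spot classes. Among the others that were lower were Cd22 (-1.02), Fcer2a (-1.06), Blk (-1.14), Ms4a1 (-0.81), Cd79b (-0.70), Fcmr (-0.65), Pax5 (-0.64) and Spib (-0.45). The sum of the list was 18.9 to 34.8 in plasma cell spots and 32.9 to 56.1 in other spots, so B cell RNA was lower in plasma cell spots and not absent. MHC class II genes were lower for 4 of 9 with a median of -0.37: the invariant chain gene Cd74 (-0.37, adjusted p = 0.0015), the regulator Ciita (-0.54), H2-Ob (-0.96, adjusted p = 1.13e-05) and H2-Oa (-0.82, adjusted p = 0.00214, lost without Early and without Advanced 2, adjusted p = 0.0808 and 0.0619).

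Follicular dendritic cell genes were lower for 5 of 6. Coch, which marks these cells in lymph nodes, had 1, 8, 4 and 2 UMIs in plasma cell spots and 35, 443, 139 and 183 in other spots (log2 fold change -3.06, SE 0.27, adjusted p = 2.72e-08, edgeR). Cxcl13, their B cell chemokine, had 5.45, 11.7, 3.01 and 5.27 UMIs per 10000 against 4.77, 27.1, 14 and 10.2 (log2 fold change -1.08, SE 0.20, adjusted p = 0.00123), lower on the 3 TNF-Tg areas and not on WT. Clu (-0.79), Mfge8 (-0.81) and Madcam1 (-1.75, also on the lymphatic list) were lower as well. Of the germinal centre genes 0 of 6 tested were lower, and 1, the proliferation gene Mki67, was higher, with 0.648, 0.632, 0.505 and 0.579 against 0.312, 0.238, 0.272 and 0.338 (log2 fold change 1.05, adjusted p = 0.00183, lost without Early with adjusted p = 0.0596).

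The other leading lower genes were Ccl20, a chemokine for CCR6-bearing lymphocytes, with 0, 13, 0 and 2 UMIs in plasma cell spots and 26, 598, 109 and 103 in other spots (log2 fold change -3.09, SE 0.33, adjusted p = 5.89e-07, edgeR), and Lyz1, a lysozyme, with 1.14, 3.81, 3.16 and 2.78 UMIs per 10000 against 3.95, 12.2, 9.17 and 9.60 (log2 fold change -1.69, SE 0.11, adjusted p = 5.57e-11). Lyz1 and Lyz2 are near-identical copies, and how reads were split between them is uncertain. Il22ra2, the soluble IL-22 binding protein, was lower by a log2 fold change of -1.88 (adjusted p = 8.95e-06), the IL-9 receptor gene Il9r by -1.65 (adjusted p = 2.15e-06), and Bfsp2 by -1.95 (adjusted p = 0.000306). Slc4a8 (-1.63), Pthlh (-1.61, lost without Early, adjusted p = 0.334) and St6galnac2 (-1.60) completed the 10. With the score without Jchain, Il9r (-0.49), Slc4a8 (-0.41), Pthlh (-1.03) and St6galnac2 (-0.36) no longer passed (adjusted p = 0.398, 0.66, 0.18 and 0.75).

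The second question was whether plasma cell spots differed between conditions. Each condition's plasma cell spots were summed per area and compared in a single fit. It had 1 residual degree of freedom, from the pair of Advanced areas, and Early and WT are assumed to vary like them. The p-values rest mainly on the variance shared across genes, and a gene's own spread between the Advanced areas enters little. Fos, at 2.98 and 0.116 UMIs per 10000 on these areas, still passed between Advanced and Early (adjusted p = 0.0325, edgeR). A small p-value here is thus not a sign that the Advanced areas were alike. Both comparisons use the same Advanced areas. Early against WT is 1 area against 1 and got no p.

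Advanced plasma cell spots had 9 genes higher (0.1% of 9000 tested) and 8 lower (0.0889%) than Early ones, and 4 of the 9 were heavy chain genes, Ighg1, Ighg2b, Ighg2c and Ighe. Ighg2b, at 151 UMIs per 10000 on Early, was at 281 and 553 on the Advanced areas (log2 fold change 1.51, SE 0.20, adjusted p = 3.9e-10, edgeR) and Ighg1, at 13.0, was at 28.9 and 58.5 (1.78, SE 0.25, adjusted p = 8.65e-10). Ighg2c, at 174, was at 267 and 336 (0.82, SE 0.21, adjusted p = 0.0478), a call kept in 3 of 15 other settings and lost in 12. The mean ratio of Ighg2b to Ighm over the Advanced areas was 1.63 ± 0.392 (SD, n = 2), 2.82 times the Early ratio of 0.58. Ighg3 went down, from 60.9 to 19.9 and 26.1 (-1.37, SE 0.25, adjusted p = 4.06e-05), and Ighm, at 260 against 207 and 290, did not pass (-0.04, SE 0.20, adjusted p = 1). Ighe had 90 UMIs on Advanced 2 and 1 on Advanced 1, and without the single spot given above its level on Advanced 2 was 0.576 UMIs per 10000; the call was lost in 5 of 15 settings. Of the 4 light chain genes 0 passed, and Igkc had a log2 fold change of 0.27 (adjusted p = 1).

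These calls did not all stand when the spots were treated differently. With each spot thinned to 1000 UMIs, 2 genes were higher (Cfd and Ighg1) and 5 lower (Cxcl13, Saa3, Hbb-bs, Hba-a1 and Ighg3), and Ighg2b no longer passed at a log2 fold change of 1.42 (adjusted p = 0.989). Its call also ended with library totals in place of TMM (1.47, adjusted p = 0.0763) and with the score without Jchain (1.58, adjusted p = 0.29). Ighg3 lost its call at the top 20% of spots (-1.12, adjusted p = 0.0948), without Jchain (-1.08, adjusted p = 0.461) and among edge spots (-1.03, adjusted p = 0.429). DESeq2 called 0 genes higher and 1 lower, Saa3. At an unadjusted p under 0.05 the main fit had 154 higher and 130 lower.

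Between Advanced and Early, 0 of 20 plasma cell genes outside the score passed, and 1 of 22 ER chaperones and folding genes (Fkbp11). Of the ER entry genes 0 of 25 passed, and of the transport genes 0 of 22. The medians of these lists were 0.21, 0.01, 0.00 and 0.01, beside 0.02 for all genes. Over all 9000 genes tested 0.1% were higher and 0.0889% lower, so such counts cannot set lists this short apart from other genes. Fkbp11 had 33 and 8 UMIs on the Advanced areas and 3 on Early (log2 fold change 2.94, SE 0.71, adjusted p = 0.0223, lost without WT with 2.93, adjusted p = 0.0579). Cxcl13 fell from 11.7 to 3.01 and 5.27 UMIs per 10000 (-1.57, SE 0.29, adjusted p = 9.26e-05), and Saa3, an acute phase protein, from 10.0 to 1.23 and 2.29 (-2.59, SE 0.31, adjusted p = 1.81e-13). For these 2 genes both Advanced areas were below Early. The same was seen in other spots, where Saa3 had 5.17 on Early and 2.34 and 0.993 on Advanced. The levels of Cxcl13 in other spots, given above, were also lower on both Advanced areas. These 2 falls were thus not particular to plasma cell spots. Among edge spots Cxcl13 no longer passed (-1.04, adjusted p = 0.6). Angptl4, a lipoprotein lipase inhibitor, fell from 1.34 to 0.356 and 0.608 (-1.57, adjusted p = 0.025). The fat genes Cfd (1.70 on Early, 8.55 and 3.51 on Advanced), Car3 (0.830, 3.91 and 1.68) and Scd1 (2.65, 7.97 and 6.06) were higher. They were also higher in other spots, Cfd at 1.82 on Early and 3.22 and 5.04 on Advanced, Car3 at 0.714, 1.11 and 2.17, and Scd1 at 4.5, 5.5 and 7.26. On Advanced 1 a single plasma cell spot held 41.1% of the Car3 and 31.7% of the Cfd UMIs. The Scd1 call was lost in 9 of 15 settings. In plasma cell spots Fos was higher on Advanced 1 (2.98) and lower on Advanced 2 (0.116) than on Early (0.523). The haemoglobin genes Hba-a1, Hba-a2, Hbb-bs and Hbb-bt were lower by log2 fold changes of -2.55 to -4.07, and 74.7% to 78.3% of their Early UMIs lay in a single spot; without that spot Hbb-bs was 8.17 on Early rather than 31.6.

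Against WT, Advanced plasma cell spots had 13 genes higher (0.144% of 9000) and 54 lower (0.6%); DESeq2 called 0 and 3 (Slpi, Clec4n and Ccl9), and at an unadjusted p under 0.05 there were 339 and 346. Slpi had the largest fall among the genes called, from 228 UMIs per 10000 on WT to 10.9 and 6.20 on the Advanced areas (log2 fold change -4.84, SE 0.25, adjusted p = 3.55e-79, edgeR). Early, of the same age as WT, had 4.98, and the same order was seen in the other spots (32.7 on WT and 0.756 to 1.95 on the TNF-Tg areas). Ighg1 fell from 268 to 28.9 and 58.5 (-2.74, SE 0.22, adjusted p = 3.15e-32), with 13.0 on Early, and Igha from 14.3 to 8.36 and 4.12 (-1.34, adjusted p = 0.00091). A single spot held 44.9% of the WT Igha UMIs. Without the spot holding most Igha on each area, WT was at 8.03 and the Advanced areas at 7.26 and 3.68. In other spots Igha had 2.95 on WT and 4.68 and 1.95 on Advanced. Ighm was higher, 109 against 207 and 290 (1.06, SE 0.21, adjusted p = 0.000347), as was Iglc1, at 7.13 against 7.65 and 32.6 (1.38, adjusted p = 0.00118), while Ighg2b (-0.28, adjusted p = 0.791) and Ighg2c (0.72, adjusted p = 0.0649) did not pass.

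Sinus macrophage genes were lower than in WT for 7 of 13, with a median of -1.12, and the myeloid chemokine and lectin genes Ccl9, Ccl6, Ccl12, Clec4n and Clec4a2 were among the 10 largest falls, with Slpi, C6, Ighg1, Iglv1 and Ms4a8a. Ccl9 had 4.73 UMIs per 10000 on WT and 0.356 and 0.435 on Advanced (log2 fold change -3.70, SE 0.37, adjusted p = 2.89e-20, edgeR), with 0.902 on Early, and Marco had 38.9 against 13.7 and 26.2 (-1.08, adjusted p = 0.00783), with 28.0 on Early. These falls were not particular to plasma cell spots. In other spots Ccl9 had 1.75 on WT and 0.372 and 0.421 on Advanced, and Marco 33.8 against 20.0 and 23.4. The rest of the 7 sinus macrophage genes were also lower there on both Advanced areas, while Ccl12 was not on Advanced 2 (2.46 on WT, 2.89). Neutrophil genes were higher for 3 of 8 (Camp 3.81, Ltf 2.38 and Ngp 1.60), and Camp went from 3 UMIs on WT to 136 and 30. The rise was small for Ngp on Advanced 2, with 0.61 UMIs per 10000 on WT and 3.05 and 0.811 on Advanced. On Advanced 2 single spots held 46.7% of the Camp and 45.0% of the Ltf UMIs. The Ngp call was lost in 7 of 15 settings and the Ltf call in 6 of 14. Bpifb3 (4.03), Wdr45 (2.61), Ezh1 (2.54), Fbrsl1 (2.11) and Scd1 (1.53) were among the 10 largest rises. Of these, Bpifb3, Wdr45, Ezh1 and Fbrsl1 had only 1, 3, 3 and 6 UMIs in WT plasma cell spots. The Wdr45 call was lost in 11 of 15 settings and the Ezh1 call in 10 of 14. In other spots Wdr45 had 0.647 UMIs per 10000 on WT and 0.644 and 0.581 on Advanced. Ighe and Pgap1 were also among the 10, with 0 UMIs in WT plasma cell spots and so no fold. Pgap1 had 23 and 13 on the Advanced areas. Plasma cell genes outside the score, ER chaperones, ER entry and transport genes had 0 calls in either direction, with medians of -0.14, -0.59, -0.46 and -0.44 beside 0.03 for all genes. Over all 9000 genes tested 0.144% were higher and 0.6% lower, so 0 calls do not set lists this short apart.

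This comparison leaned on few WT spots. The 3 deepest WT plasma cell spots held 37.8% of their area's UMIs, and single spots held 34.9% of the WT Clec4n UMIs, 36.3% of Ccl9 and 31.7% of Marco. Without the 3 deepest plasma cell spots of each area 7 genes were higher, Camp and Iglc1 among them, and 6 lower, Slpi, Ighg1, Igha, Gsn, Cd209f and Gm42418, with 0 of the 7 sinus macrophage genes. With spots thinned to 1000 UMIs 0 were higher and 2 lower, Slpi and Ighg1.

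**Figure D5:**
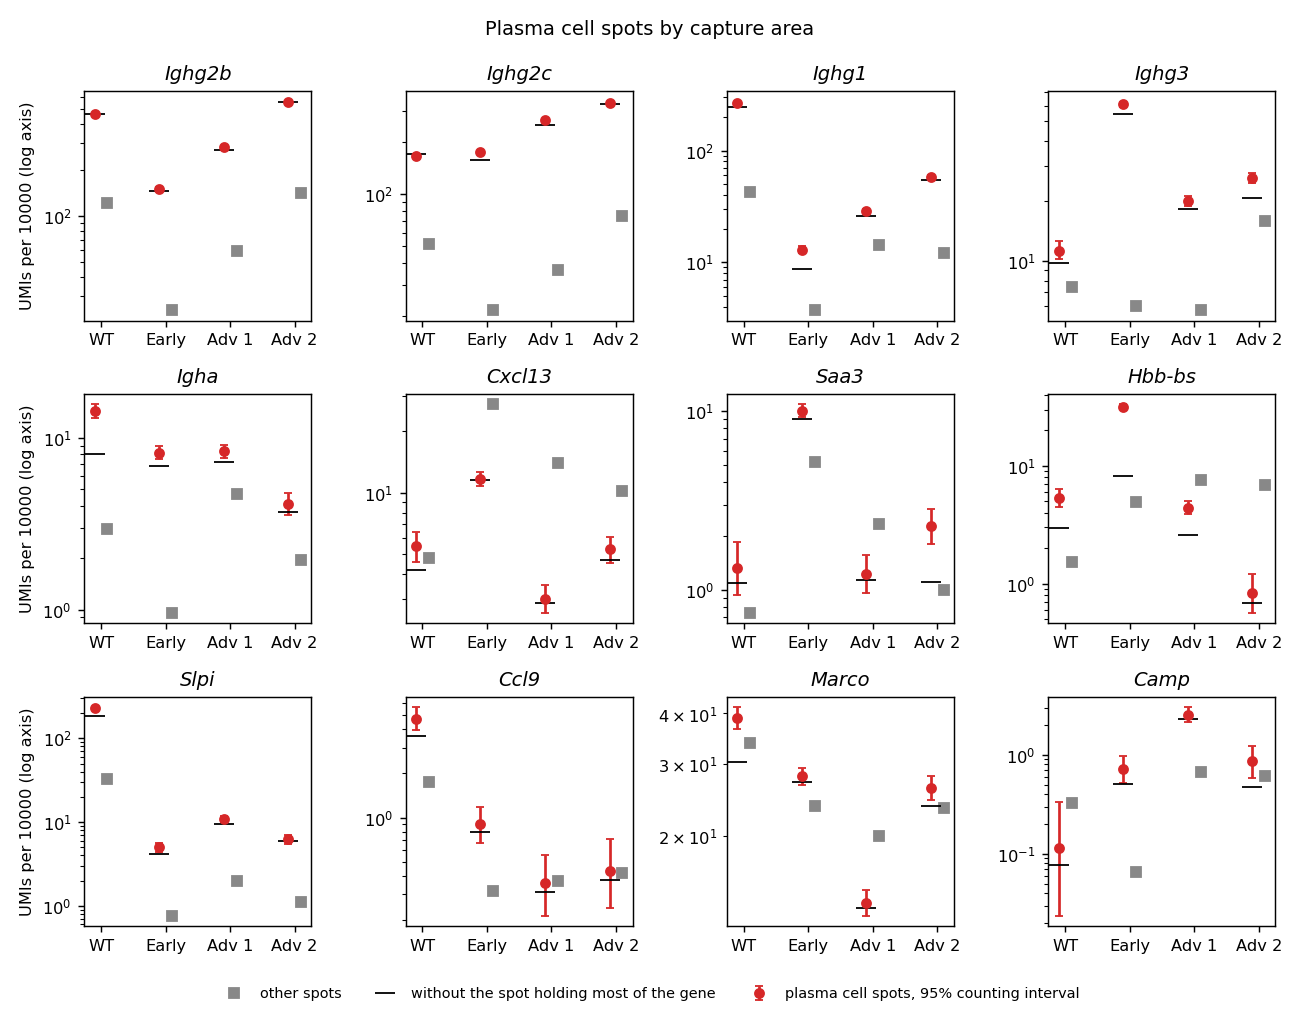
UMIs per 10000 (y axis, log scale) of 12 genes in plasma cell spots of the 4 capture areas (red points, bars are 95% exact counting intervals) and in other spots (grey squares); a short black line gives the plasma cell level without the spot that held most of the gene's UMIs. Slpi stands at 228 on WT and between 4.98 and 10.9 on the TNF-Tg areas, Ighg3 at 60.9 on Early and between 11.3 and 26.1 elsewhere, and the Early point of Hbb-bs falls from 31.6 to 8.17 without its leading spot.

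Last, the contrast of plasma cell spots with other spots was itself compared between Advanced and Early. Of 9931 genes tested, 7 (0.0705%) had a smaller difference in Advanced and 0 a larger one; DESeq2 called 1, Hba-a2, and library totals in place of TMM 0. Ighg3 was 10.2 times as high in plasma cell spots as in other spots on Early, 3.50 and 1.64 times on the Advanced areas and 1.52 times on WT (difference of log2 fold changes -2.01, SE 0.26, adjusted p = 8.4e-06, edgeR). Igha was 8.58 times as high on Early, 1.79 and 2.11 times on Advanced and 4.84 times on WT (-2.07, SE 0.26, adjusted p = 2.93e-06). For both genes the Early area stood above each of the others. The Igha difference was -0.74 (adjusted p = 0.998) at the top 20% of spots and -1.16 (adjusted p = 0.999) with other spots matched on UMIs. Sfrp2, a secreted Wnt modulator, changed by -2.20 (adjusted p = 0.000195, lost in 6 of 17 settings), and the 4 haemoglobin genes by -3.46 to -4.26. For Ighg2b the difference was -0.44 and did not pass (SE 0.15, adjusted p = 0.939). Its level went from 151 on Early to 281 and 553 on Advanced in plasma cell spots and from 24.2 to 59.1 and 141 in other spots.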

How the data were processed

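The authors placed a section of PLNs on each of 4 Visium capture areas, captured polyadenylated RNA and, per the submitters' processing notes, used Space Ranger 1.1.0, Seurat 4.0.3 and R 4.1.1 with the mm10 genome. The deposited values are UMI counts per gene and spot, not normalized, for spots under tissue, and they were used as deposited. Each group's depth is given with the results. Counts were summed per area over plasma cell spots and over other spots, without the score genes, and tested with edgeR 4.0.16 in R 4.3.3 (quasi-likelihood test, filterByExpr, TMM, Benjamini-Hochberg adjustment over all genes tested, threshold 0.05), with the capture area as block. Plasma cell spots were compared between conditions over the 4 area sums. Spots were not treated as replicates, and each area pools several mice, so no p-value measures the spread between mice. Between spot classes, p-values rest on how the difference within an area varied over the 4 areas and on variance shared across genes. Between conditions, they rest mainly on the shared variance, with 1 residual degree of freedom from the Advanced pair. Counting intervals are exact 95% intervals and cover counting error only. The score's denominator holds the UMIs of all genes, those tested included.

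The members and the gene lists were chosen with earlier results of these data known. Named genes are the immunoglobulin constant genes, the 15 highest and 10 lowest log2 fold changes among called genes with the same direction on 4 of 4 areas and at least 100 UMIs, the most abundant and most changed genes of each list, and up to 10 called genes each way between conditions. A few called members of the lists outside this rule, and the genes left after dropping deep spots, were named after their values were seen. Gene positions are from GENCODE M21 and promoters from RefSeq, both on GRCm38. Alternatives covered scaling, filter, DESeq2 1.42.0, the share and UMI minimum of spots, the score without Jchain, the choice of other spots, edge spots and leaving out each area. Another 3 were chosen after seeing the data: plasma cell spots with at least 10 score UMIs, the 3 deepest plasma cell spots per area left out, and each spot thinned to 1000 UMIs. The scripts were tested on simulated counts. Some genes of the lists are not reported here by name.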

Additional observations from a re-analysis of the deposited data

Results flagged for a closer look

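For 7 genes the difference between plasma cell spots and other spots was smaller in Advanced than in Early by a test of the difference itself (edgeR quasi-likelihood test, 1 residual degree of freedom, adjusted p under 0.05). The values, as differences of log2 fold changes, were -4.26 for Hba-a1, -4.23 for Hbb-bs, -3.50 for Hba-a2, -3.46 for Hbb-bt, -2.20 for Sfrp2, -2.07 for Igha and -2.01 for Ighg3. For the 4 haemoglobin genes 74.7% to 78.3% of the Early plasma cell UMIs lay in 1 spot, and copies of the same chain are near-identical, so the split between Hba-a1 and Hba-a2 and between Hbb-bs and Hbb-bt is uncertain. Sfrp2 had 0.495, 2.17, 1.35 and 0.666 UMIs per 10000 in plasma cell spots and 0.281, 0.466, 1.64 and 0.451 in other spots on WT, Early, Advanced 1 and Advanced 2. With each spot thinned to 1000 UMIs, 2 genes, Igha and Ighg3, passed. Igha did not pass at the top 20% of spots (-0.74) or with other spots matched on UMIs (-1.16). The part of age, capture area and single spots in these differences was not tested.

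Spots under 1000 UMIs entered no comparison. On Advanced 2 they held 17.8 score UMIs per 10000 (95% exact counting interval 16.3 to 19.3), above the 10.2 (8.44 to 12.1) of the WT area, with 9.46 on Early and 10.9 on Advanced 1. The other spots of at least 1000 UMIs had 16.0, 9.30, 9.98 and 14.6 on the 4 areas. These are the spots left after the 15% with the highest score were taken, while no spot under 1000 UMIs was removed by score. The levels of shallow and deeper spots can therefore not be ranked from these values.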

How the results depend on the processing

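Of the values for single genes, 2836 kept their direction and side of the threshold, 373 lost and 36 gained a call and 6 reversed; of the counts of genes and the Ighg2b to Ighm ratio, 82 stayed within 1.5 times and 48 did not. The causes were not tested, except where fewer spots, reads or genes enter by construction. Genes higher in plasma cell spots (233) numbered 135 with library totals, 110 with DESeq2, 95 with the score without Jchain, 141 with other spots matched on UMIs, 43 with spots thinned to 1000 UMIs and 46 without the replicate block. Genes lower (153) numbered 724 with library totals, 259 without the filter, 60 with DESeq2, 90 for the top 10% of spots, 45 without Jchain, 27 with thinned spots and 6 without the block. Leaving out each area gave 121 to 218 higher and 56 to 139 lower.

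Between conditions, Advanced over Early (9 higher, 8 lower) became 0 and 1 with DESeq2, 4 and 3 without Jchain, 2 and 4 for edge spots, and 2 and 5 with thinned spots, and 2 higher with at least 10 score UMIs. Advanced over WT (13 higher, 54 lower) became 0 and 3 with DESeq2, 3 and 18 for edge spots, 1 and 21 with at least 10 score UMIs, 7 and 6 without the 3 deepest spots, and 0 and 2 with thinned spots, while lower genes numbered 33 with library totals, 18 for the top 10% and 35 at 2000 UMIs. Leaving out WT gave 8 and 8 for Advanced over Early, and leaving out Early 14 and 54 for Advanced over WT. The 7 genes whose difference changed between Early and Advanced became 0 with library totals, 13 without the filter, 1 with DESeq2, 17 for the top 10%, 12 at 500 and 18 at 2000 UMIs, 4 without Jchain, 13 with at least 10 score UMIs and 2 with thinned spots, and stayed 7 without WT. With the score without Jchain, Advanced minus Early reversed for Hbb-bs (0.00), Hba-a2 (0.11) and Hbb-bt (2.72), and the difference of differences for Hba-a1 (0.46), Hbb-bs (0.30) and Hbb-bt (2.64). The Ighg2b to Ighm ratio of Advanced over Early stayed between 2.64 and 3.2 over the settings and between 2.34 and 3.29 without an area.

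Without an Advanced area the fits between conditions had 0 residual degrees of freedom and gave no value. No paired analysis was possible between conditions because the groups share fewer than 2 replicate numbers. Depth limits sparse genes, and the 41 WT spots carry the fewest UMIs.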
